A study of Mus musculus with 12 samples.

Results

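Smooth muscle and actin-linked genes were followed in cumulus cells of the mouse, which derive from granulosa cells and surround the oocyte. They were Myocd, Acta2, Tagln, Cnn1, Myh11, Myl9, Flnc, Flna, Fhl1 and Fhl2, which are 10 of the 19938 genes measured. Each was looked up by its symbol in the annotation of the array, and each had 1 probe set. They were chosen with their values on these arrays known, for the low Myocd, Acta2 and Fhl1 and the high Flnc of 1 culture group. Their levels and differences are therefore a description, and the count of them past the threshold used for other genes is given once, with nothing read from it.

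The study compared 3 cultures of whole cumulus-oocyte complexes over 8 h, with 4 arrays each. Complexes came from 129SV females of 21 to 26 days, 44 h after 5 IU of equine chorionic gonadotropin (eCG), and were collected with the phosphodiesterase inhibitor cilostamide at 1 µM. Controls received 293H control medium at 0.125% v/v, the FSH/EGF group received that medium plus follicle-stimulating hormone (FSH) at 50 mIU/ml together with 10 ng/ml of epidermal growth factor (EGF). A further group received 20 ng/ml of GDF9, a growth factor secreted by oocytes, and whether it also had the 293H medium is not stated. Each drop of 50 µL held 20 complexes, and the oocytes were stripped off before RNA was taken. The RNA of 2 of 8 biological replicates per condition was pooled for each array, so the tests measure the spread between such pools.

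Smooth muscle cells contract when myosin pulls on actin filaments, and most of their contractile genes are switched on by serum response factor (SRF) at a short DNA motif, the CArG box. Myocardin, the product of Myocd, is a coactivator of SRF, and the related factors MRTF-A and MRTF-B bind SRF when actin monomers become scarce. Filamins crosslink actin filaments and tie them to membrane proteins, and the FHL proteins are built from LIM domains that bind other proteins at actin structures and in the nucleus. Cumulus cells are not muscle. In the ovary these proteins are best known from the smooth muscle-like cells of the theca externa and of vessels.

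Values are log2 expression values normalized by the authors, and a difference of 1 is 2-fold. Array medians ran from 5.41 to 5.53, and the median of the gene means was 5.78. The table carries no detection calls, so a value in the region of these medians does not show whether the transcript was present. Of 14 granulosa and cumulus markers measured, 0 had a mean below 5.78. The mean of this list ran from 9.27 to 9.35 on control arrays, from 9.35 to 9.46 on GDF9 arrays and from 8.13 to 8.26 on FSH/EGF arrays. Fshr, the FSH receptor, was lower by 3.14 with FSH/EGF than in controls and Inha, the inhibin alpha subunit, by 0.34.

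Sequences before the start sites are shown for the genes that differed most with FSH/EGF and have a promoter entry. Those of Myl9 and Fhl2, which hold a full CArG box but showed little difference, are also given. Myl9 stood at 5.03 to 5.53 over all arrays, close to the array medians, so a large fall in it could hardly have been seen. They are the 200 bases before the annotated start, 5′ to 3′ on the strand of the gene, from RefSeq on GRCm38.p6. Capitals mark a CArG box, which is CC and GG around a core of 6 letters that are each A or T, or the near form with 1 C or G in that core. Acta2 lies at chr19:34255374-34255573 on the minus strand, Fhl1 at chrX:56779483-56779682 on the plus strand and Flnc at chr6:29432953-29433152 on the plus strand. Myl9 lies at chr2:156775264-156775463 on the plus strand and Fhl2, from its second annotated start, at chr1:43163962-43164161 on the minus strand.
Acta2: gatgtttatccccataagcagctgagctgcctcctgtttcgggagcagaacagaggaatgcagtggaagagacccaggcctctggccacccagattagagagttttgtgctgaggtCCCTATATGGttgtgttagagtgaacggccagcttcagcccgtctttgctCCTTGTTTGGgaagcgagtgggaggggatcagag
Fhl1: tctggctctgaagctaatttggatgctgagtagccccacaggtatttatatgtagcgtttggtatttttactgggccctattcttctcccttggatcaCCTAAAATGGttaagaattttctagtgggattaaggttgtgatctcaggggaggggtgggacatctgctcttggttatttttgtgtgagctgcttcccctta
Flnc: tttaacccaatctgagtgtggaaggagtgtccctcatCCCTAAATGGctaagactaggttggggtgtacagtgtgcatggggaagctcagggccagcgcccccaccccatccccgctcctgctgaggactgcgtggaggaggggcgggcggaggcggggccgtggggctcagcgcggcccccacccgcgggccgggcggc
Myl9: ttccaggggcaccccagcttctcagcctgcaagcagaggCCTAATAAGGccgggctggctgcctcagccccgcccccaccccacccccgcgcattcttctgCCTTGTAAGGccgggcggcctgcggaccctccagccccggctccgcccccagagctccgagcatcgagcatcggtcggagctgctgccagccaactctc
Fhl2: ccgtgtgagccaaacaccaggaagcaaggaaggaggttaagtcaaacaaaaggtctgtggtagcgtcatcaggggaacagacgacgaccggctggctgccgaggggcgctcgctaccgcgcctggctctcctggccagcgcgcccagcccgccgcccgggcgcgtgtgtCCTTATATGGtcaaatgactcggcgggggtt

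The Acta2 stretch held 2 near forms of the CArG box, at -84 to -75 and at -34 to -25 from the start. Fhl1 held a full box at -102 to -93, and Flnc a near form at -163 to -154. The second annotated starts of Fhl1 and of Flnc had neither form in their windows. Myl9 held a full box at -161 to -152 and a near form at -99 to -90. Fhl2 held a full box at -31 to -22, and its other annotated start had one at -96 to -87. Cnn1 and Flna held neither form.

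In all, 7 of the 10 genes had a promoter entry, with 10 windows of 250 bases before and 50 after a start, searched on both strands. A full CArG box was in 4 of the 10 windows, from 3 of the 7 genes (Myl9, Fhl1 and Fhl2), and in 1.63% of all 32851 promoter windows. A full or near form was in 6 of the 10 windows, from 5 of the 7 genes, and in 9.98% of all windows. The letters CATTCC, the motif of TEAD factors that work with YAP, were in 4 of the 10 windows (Acta2, Flnc and Flna) and in 14.7% of all windows. TGACG, the core of a cyclic AMP response element, was in 3 of the 10 windows (Flnc and Fhl2) and in 20.8% of all windows. The AP-1 motif TGANTCA was in 0 of the 10 windows and in 7.81% of all windows. The 2 Flnc windows overlap and share their CATTCC and TGACG matches. These matches describe letters only, and the genes with a full box included Fhl1, with a large difference, and Myl9 and Fhl2, with small ones. For Myl9, close to the array medians in every group, a large fall could hardly have been seen.

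Myocd stood at 10.60, 10.38, 10.84 and 10.55 on control arrays 1 to 4 and at 10.70, 10.54, 10.70 and 10.63 on the GDF9 arrays. On the FSH/EGF arrays it stood at 6.73, 6.06, 6.57 and 6.51. All 4 FSH/EGF arrays lay far below the other 8, and the control and GDF9 arrays overlapped. The group means were 10.59 ± 0.19, 10.64 ± 0.08 and 6.47 ± 0.29 (SD, n = 4) for control, GDF9 and FSH/EGF. Myocd was thus lower with FSH/EGF than in controls by a log2 difference of -4.13 ± 0.13 (SE), which is 17.5-fold, with a 95% interval from -4.42 to -3.83. Against GDF9 the difference was -4.18 ± 0.13, and that of GDF9 from control was 0.05 ± 0.13. The FSH/EGF arrays serve in both of the first comparisons and the controls in 2 of the 3, so these differences are not independent of each other. In bulk RNA, fewer cells of a type and less RNA per cell cannot be told apart.

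**Figure D1:**
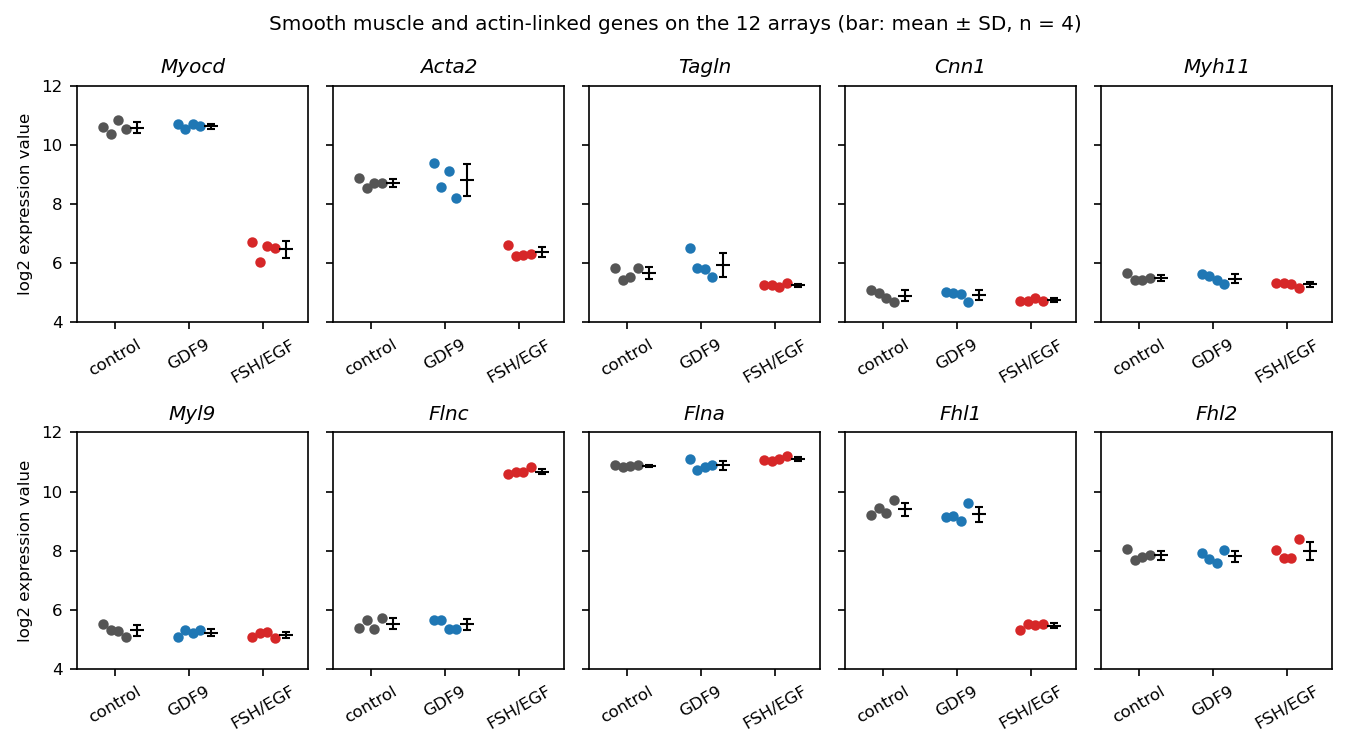
Log2 expression value (y axis) of each of the 10 genes on the 12 arrays, with 4 control (grey), 4 GDF9 (blue) and 4 FSH/EGF arrays (red) from replicate 1 to 4, and the mean with its SD (n = 4) beside each group. Myocd, Acta2 and Fhl1 are low and Flnc is high on the FSH/EGF arrays, while Cnn1, Myl9 and Fhl2 overlap between the groups.

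Acta2 encodes alpha smooth muscle actin, the actin isoform of contractile smooth muscle cells. It stood at 8.87, 8.54, 8.73 and 8.71 in controls and at 6.61, 6.24, 6.29 and 6.33 with FSH/EGF. On the GDF9 arrays it stood at 9.38, 8.58, 9.14 and 8.20. The FSH/EGF arrays all lay below the other 8, and the GDF9 arrays spread on either side of the controls. The SD was 0.53 among GDF9 arrays and 0.13 among controls. Acta2 was lower with FSH/EGF than in controls by -2.34 ± 0.21, or 5.07-fold, with an interval from -2.79 to -1.89. The difference from GDF9 was -2.45 ± 0.21. GDF9 minus control was 0.11 ± 0.21, with an interval from -0.34 to 0.56.

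Tagln encodes transgelin, also called SM22 alpha, an actin-binding protein and common smooth muscle marker. Its values were 5.83, 5.45, 5.55 and 5.83 in controls, 6.51, 5.84, 5.82 and 5.53 with GDF9, and 5.25, 5.28, 5.20 and 5.33 with FSH/EGF. The FSH/EGF arrays lay below all the others, by little, and most values were close to the array medians. The difference of FSH/EGF was -0.40 ± 0.17 from control, with an interval from -0.77 to -0.03, and -0.66 ± 0.17 from GDF9. GDF9 minus control was 0.26 ± 0.17, with an interval from -0.11 to 0.63.

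Among the GDF9 arrays, array 1 had the highest and array 4 the lowest value of both Acta2 and Tagln. The same held for Cnn1 and Myh11. Across all 12 arrays, deviations from the group mean of Acta2 and Tagln had a Pearson r of 0.77, as a description. It was the highest r among all pairs of the 10 genes. Tagln and Myh11 had 0.73, and Cnn1 and Fhl1 had -0.74. Without GDF9 arrays 1 and 4 the r of Acta2 and Tagln was 0.22, so that the 0.77 rests on those arrays. The mean of the 11 theca and stroma markers measured was 5.69 on both of those arrays. The mean of the theca list ran from 5.76 to 5.90 on control, from 5.69 to 5.81 on GDF9 and from 5.59 to 5.62 on FSH/EGF arrays, and its part in the Acta2 values was not tested.

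**Figure D2:**
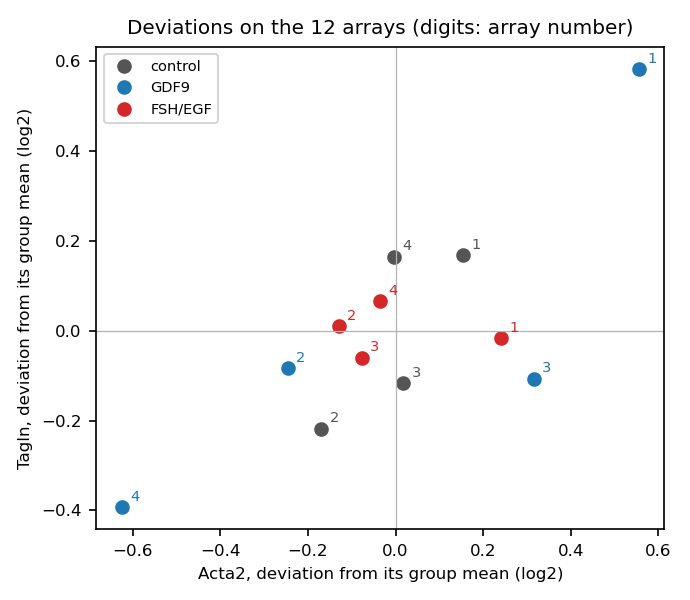
Deviation of Acta2 (x axis) and of Tagln (y axis) from the mean of its culture group, in log2 units, with 1 point per array, coloured by group and numbered by replicate. GDF9 array 1 is high and GDF9 array 4 low for both genes, and the other 10 arrays have an r of 0.22.

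Calponin 1, smooth muscle myosin heavy chain and a regulatory myosin light chain are encoded by Cnn1, Myh11 and Myl9. All of their values lay between 4.68 and 5.66. Cnn1 stood at 5.09, 4.99, 4.82 and 4.69 in controls, and at 4.73, 4.73, 4.84 and 4.73 with FSH/EGF. Myl9 stood at 5.53, 5.33, 5.27 and 5.09 in controls, and at 5.09, 5.21, 5.25 and 5.03 with FSH/EGF. The groups overlapped for both genes. Myh11 stood at 5.66, 5.45, 5.44 and 5.51 in controls, and at 5.35, 5.34, 5.29 and 5.18 with FSH/EGF, where all 4 arrays were below the controls. The differences of FSH/EGF from control were -0.14 ± 0.10 for Cnn1, -0.22 ± 0.09 for Myh11 and -0.16 ± 0.10 for Myl9. Since these genes stood near or below the array medians in every group, the arrays could hardly have shown a large fall in them. On the GDF9 arrays Cnn1 ran from 4.68 to 5.03, Myh11 from 5.31 to 5.64 and Myl9 from 5.09 to 5.33, each overlapping the controls.

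Filamin C, encoded by Flnc, is the filamin of striated muscle and is known for its place at the Z-disc. It stood at 5.39, 5.64, 5.35 and 5.73 in controls and at 5.67, 5.66, 5.34 and 5.35 with GDF9. With FSH/EGF it stood at 10.58, 10.65, 10.67 and 10.82. The 4 FSH/EGF arrays were far above the other 8, which lay in the range of the array medians. The means were 5.53 ± 0.19 in controls, 5.51 ± 0.19 with GDF9 and 10.68 ± 0.10 with FSH/EGF (SD, n = 4). The difference was 5.15 ± 0.11 from control, or 35.5-fold, with an interval from 4.91 to 5.39, and 5.17 ± 0.11 from GDF9. That of GDF9 from control was -0.02 ± 0.11.

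Filamin A, the broadly expressed filamin encoded by Flna, showed a small difference. It stood at 10.89, 10.83, 10.86 and 10.89 in controls and at 11.07, 11.05, 11.12 and 11.19 with FSH/EGF, without overlap. The GDF9 arrays, at 11.11, 10.74, 10.82 and 10.91, overlapped both. FSH/EGF differed from control by 0.24 ± 0.08, or 1.18-fold, and from GDF9 by 0.21 ± 0.08.

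Fhl1 encodes a LIM protein of skeletal and heart muscle. It stood at 9.20, 9.45, 9.29 and 9.71 in controls and at 9.15, 9.17, 8.99 and 9.60 with GDF9. With FSH/EGF it stood at 5.32, 5.51, 5.50 and 5.52, in the range of the array medians and far below the other arrays. FSH/EGF differed from control by -3.95 ± 0.14, which is 15.5-fold lower, with an interval from -4.25 to -3.66. The difference from GDF9 was -3.76 ± 0.14, and GDF9 minus control was -0.19 ± 0.14.

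Fhl2, a LIM protein and transcriptional cofactor, overlapped between the groups. It stood at 8.05, 7.69, 7.77 and 7.85 in controls, 7.91, 7.73, 7.60 and 8.02 with GDF9, and 8.03, 7.74, 7.74 and 8.40 with FSH/EGF. The FSH/EGF minus control difference was 0.14 ± 0.15, with an interval from -0.19 to 0.46. A change of the size of Fhl1 lay outside that interval.

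**Figure D3:**
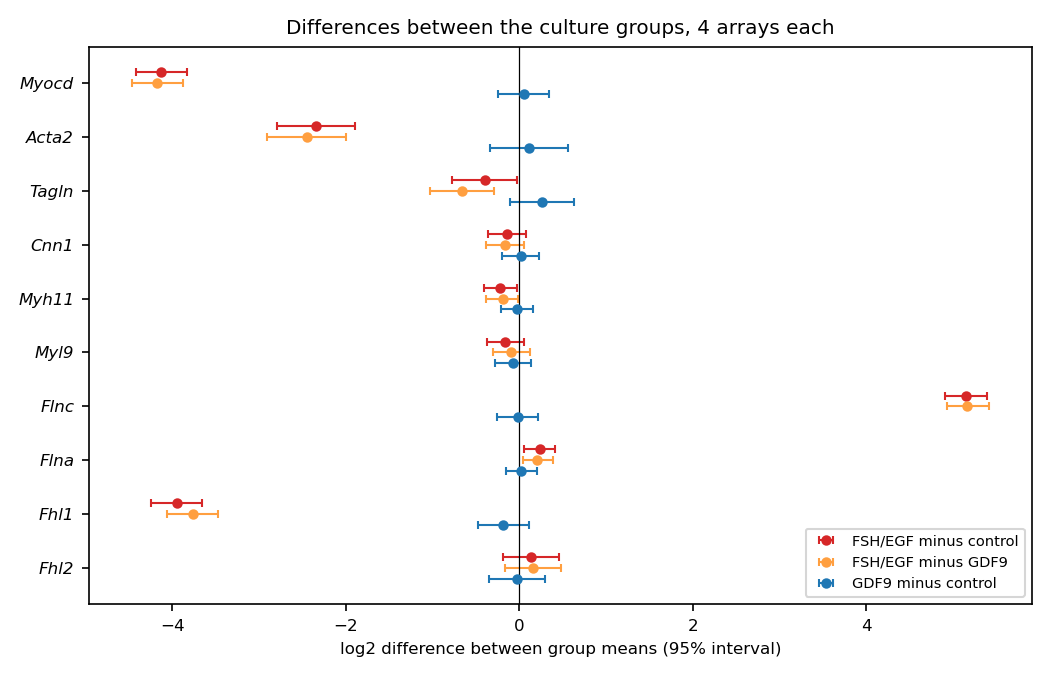
Log2 difference between group means with its 95% interval (x axis) for each of the 10 genes, for FSH/EGF minus control (red), FSH/EGF minus GDF9 (orange) and GDF9 minus control (blue). Myocd at -4.13, Fhl1 at -3.95 and Acta2 at -2.34 lie to the left and Flnc at 5.15 to the right for FSH/EGF minus control, and all GDF9 minus control intervals include 0.

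With limma over all rows and a threshold of 0.05 on the adjusted p, 5 of the 10 genes were past it for FSH/EGF minus control, against 36.8% of all genes. The arrays did not overlap for 7 of the 10, against 41.9% of all genes. For FSH/EGF minus GDF9, 5 of the 10 were past the threshold, against 29.1%, and 5 of 10 did not overlap, against 33.7%. For GDF9 minus control, 0 of 10 were past it with limma, against 0.0% of all genes, and 0 had an unadjusted p under 0.05. There 0 of 10 did not overlap, against 2.32%. Since the genes were chosen on these comparisons, nothing is read from the counts.

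The genes whose pattern over the 12 arrays was most like that of Myocd were Egfr (Pearson r 0.9975), Slc18a2 (0.9966), Mras (0.9959), Grb14 (0.9953) and Nos2 (0.9952). Egfr, the EGF receptor, had means of 9.67 in controls, 9.71 with GDF9 and 7.39 with FSH/EGF. Mras, a small GTPase, had means of 11.01, 11.06 and 8.55. Those most like Flnc were Fgf2 (0.9993), Aldh1a3 (0.9992), Slc23a2 (0.9987), Cd44 (0.9987) and Btc (0.9985). Btc encodes betacellulin, a ligand of the EGF receptor, and had means of 5.61, 5.75 and 10.70. Cd44, the hyaluronan receptor, had means of 4.76, 4.71 and 7.76. These r values are mostly set by the difference of the FSH/EGF arrays from the rest, and they describe 12 arrays of 3 groups.

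Relatives of the 10 genes from the same protein families were set beside them, and they are named here with their values known. Tagln2, the transgelin of non-muscle cells, stood at 7.15 to 7.49 in controls and 10.48 to 10.74 with FSH/EGF. It rose by 3.22 ± 0.12, or 9.30-fold (limma adjusted p = 1.73e-09). Cnn3, the acidic calponin, rose by 0.70 ± 0.08 (limma adjusted p = 3.95e-05), and Cnn2, which is close to the array medians, differed by -0.31 ± 0.19 without passing (limma adjusted p = 0.257). Of the myosin II heavy chains, Myh9 rose by 1.66 ± 0.10 (limma adjusted p = 5.53e-08). Myh10, the heavy chain of non-muscle myosin IIB, fell by 1.03 ± 0.12 on the log2 scale (limma adjusted p = 2.34e-05), and Myh14, that of IIC, by 0.29 ± 0.07 (limma adjusted p = 0.00499). The light chain gene Myl12a rose by 0.52 ± 0.07 (limma adjusted p = 0.000112). Tagln3 at -0.10 ± 0.11 and Myl12b at 0.25 ± 0.11 did not pass.

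Fhl3, a LIM protein of skeletal muscle, stood at 5.81 to 6.23 in controls and at 7.79 to 8.15 with FSH/EGF. It rose by 2.04 ± 0.12, or 4.11-fold (limma adjusted p = 5.56e-08), while Fhl1 was lower by -3.95. Fhl4 at -0.09 ± 0.08 and Fhl5 at -0.11 ± 0.08 did not pass. Actb, cytoplasmic beta actin, did not pass the threshold, with a difference of -0.06 ± 0.09 (limma adjusted p = 0.611). Actg2, the enteric smooth muscle actin, stood at 5.19 to 5.47 in controls and 4.95 to 5.15 with FSH/EGF, near or below the array medians. It fell by 0.30 ± 0.08 (limma adjusted p = 0.0188), and whether its transcript was present cannot be judged. Actin transcripts are near-identical over their coding parts and their probe sets may share signal, so the values of single actins are uncertain. All 4 tropomyosin genes rose, with differences of 1.14 for Tpm1, 0.83 for Tpm2, 1.14 for Tpm3 and 0.85 for Tpm4.

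**Figure D4:**
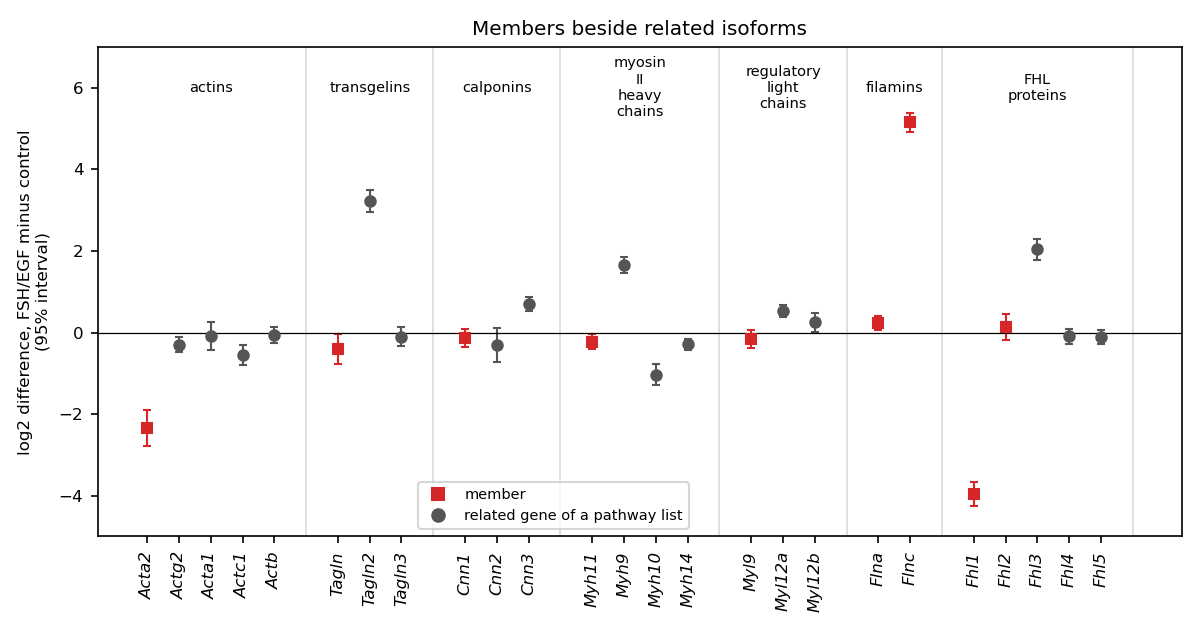
Log2 difference of FSH/EGF minus control with its 95% interval (y axis) for 9 of the 10 genes (red squares) and for related isoforms (grey circles), grouped by protein family. Myocd is not shown. Within the transgelins Tagln2 lies at 3.22 and Tagln at -0.40, and within the FHL proteins Fhl3 lies at 2.04 and Fhl1 at -3.95.

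Beyond the 10 genes, 9 lists of related genes were compared, of which 234 different genes were measured. For FSH/EGF minus control 91 of the 234 rose and 42 fell, which is 38.9% and 17.9%, against 21.9% and 14.9% of all genes. The median difference was 0.05 in these genes and -0.07 over all genes. For FSH/EGF minus GDF9, which shares the FSH/EGF arrays, 86 rose and 27 fell, which is 36.8% and 11.5%, against 18.6% and 10.5%. For GDF9 minus control 0 of the 234 passed with limma, and 10 had an unadjusted p under 0.05, which is 4.27%, against 4.95% of all genes. Of all genes called for FSH/EGF minus control, 59.4% were higher, and 72.5% were with arrays set to equal medians. In the listed genes the share was 68.4%, and 76.8% with equal medians.

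Of 25 other smooth muscle contractile genes, 9 (36.0%) rose and 4 (16.0%) fell with FSH/EGF against control, beside 21.9% and 14.9% of all genes. Compared with GDF9, 8 (32.0%) rose and 5 (20.0%) fell, beside 18.6% and 10.5% of all genes. Without control array 4, 7 fell against control, and without FSH/EGF array 1, 3 fell against GDF9. Tagln2 is described above. Cald1, encoding caldesmon, an inhibitor of actomyosin, stood at 6.01 to 6.48 in controls and 8.23 to 8.56 with FSH/EGF, and it rose by 2.08 ± 0.18 (limma adjusted p = 2.39e-06). Csrp2, a cysteine-rich LIM protein of smooth muscle, stood at 10.26 to 10.60 in controls and 8.81 to 9.06 with FSH/EGF. It fell by 1.52 ± 0.10 (limma adjusted p = 1.72e-07). The median of the list was -0.11. Some of its genes stood near or below the array medians on all arrays, such as Des at 4.69 to 5.47 and Kcnmb1 at 4.21 to 4.75. The arrays could hardly have shown a large fall in them.

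Of 25 regulators that act with myocardin or SRF, 7 (28.0%) rose and 8 (32.0%) fell, beside 21.9% and 14.9% of all genes. The median was -0.12. Compared with GDF9, 6 (24.0%) rose and 6 (24.0%) fell, beside 18.6% and 10.5% of all genes. With quantile normalization repeated on the deposited values, 3 rose and 9 (36.0%) fell against control. In that setting 17.4% of all genes rose and 14.5% fell. Foxo1, a forkhead transcription factor, stood at 11.07 to 11.43 in controls and 9.23 to 9.66 with FSH/EGF, and it fell by 1.78 ± 0.12 (limma adjusted p = 1.53e-07). Mef2c, a MADS-box factor that binds the long form of myocardin, stood at 6.41 to 7.08 in controls and 4.87 to 5.15 with FSH/EGF. It fell by 1.76 ± 0.14 (limma adjusted p = 9.74e-07). Smad3, which carries TGF-beta signals, rose by 1.40 ± 0.12 (limma adjusted p = 2.83e-06).

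Srf itself, named with its value known, stood at 8.52 to 9.00 in controls and 7.94 to 8.21 with FSH/EGF. It fell by 0.64 ± 0.13 (limma adjusted p = 0.00325). Mrtfa and Mrtfb, the myocardin relatives, did not pass, with differences of -0.12 ± 0.09 and -0.15 ± 0.10. Their limma adjusted p values were 0.306 and 0.272.

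Of 19 target genes of MRTF-SRF or YAP, 11 (57.9%) rose and 4 (21.1%) fell, beside 21.9% and 14.9% of all genes. The median was 0.45. Compared with GDF9, 8 (42.1%) rose and 4 (21.1%) fell, beside 18.6% and 10.5% of all genes. Itga5, the alpha subunit of the fibronectin receptor, stood at 6.73 to 7.30 in controls and 11.38 to 11.67 with FSH/EGF. It rose by 4.46 ± 0.12, or 22.0-fold (limma adjusted p = 9.09e-11). Myh9, whose product is the heavy chain of non-muscle myosin IIA, stood at 9.34 to 9.53 in controls and 11.00 to 11.17 with FSH/EGF. Pdlim7, a PDZ and LIM protein of stress fibres, rose by 1.49 ± 0.11 (limma adjusted p = 5.1e-07).

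Of 18 genes of the filamin family and partners of filamin C, 4 (22.2%) rose, beside 21.9% of all genes, so rises were near that share. Falls were 5 (27.8%), beside 14.9% of all genes, and the median was -0.13. Compared with GDF9, 4 (22.2%) rose and 3 (16.7%) fell, beside 18.6% and 10.5% of all genes. Itgb3, the integrin beta 3 subunit, stood at 6.54 to 6.63 in controls and 9.68 to 9.78 with FSH/EGF. It rose by 3.15 ± 0.14, or 8.85-fold (limma adjusted p = 6.28e-09). Hspb8, a small heat shock protein that works with the co-chaperone BAG3, rose by 2.56 ± 0.10 (limma adjusted p = 1.9e-09). Fblim1, a filamin-binding LIM protein, rose by 0.69 ± 0.12 (limma adjusted p = 0.00103). The count of falls was 3 without control array 1 or 2, GDF9 array 3 or 4, or FSH/EGF array 1, 2 or 4, and 2 without FSH/EGF array 3. It was 2 (11.1%) with equal array medians, beside 9.19% of all genes in that setting. Against GDF9 0 fell without GDF9 array 2 or 3 or FSH/EGF array 1, 2 or 3, and 1 without FSH/EGF array 4.

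Of 25 other FHL and LIM genes, 9 (36.0%) rose and 5 (20.0%) fell, beside 21.9% and 14.9% of all genes. The median was 0.15. Compared with GDF9, 9 (36.0%) rose and 3 fell, beside 18.6% and 10.5% of all genes. With quantile normalization repeated, 5 (20.0%) rose and 4 (16.0%) fell against control. These shares were near the 17.4% and 14.5% of all genes in that setting. Limch1, a LIM and calponin homology protein that activates non-muscle myosin, stood at 8.06 to 8.39 in controls and at 4.89 to 5.03 with FSH/EGF. It fell by 3.27 ± 0.10, or 9.65-fold (limma adjusted p = 2.03e-10). Ablim1, an actin-binding LIM protein, stood at 7.65 to 8.11 in controls and 5.48 to 5.74 with FSH/EGF, and it fell by 2.23 ± 0.10 (limma adjusted p = 5.78e-09).

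Of 38 genes of actin assembly and turnover, 23 (60.5%) rose and 3 (7.89%) fell, beside 21.9% and 14.9% of all genes. The median was 0.45. Compared with GDF9, 23 (60.5%) rose and 1 (2.63%) fell, beside 18.6% and 10.5% of all genes. Without control arrays 1 and 4, 1 fell against control, and without GDF9 array 1 or FSH/EGF array 4, 2 fell against GDF9. Tmsb4x, thymosin beta 4, which binds actin monomers, stood at 6.40 to 6.96 in controls and 9.60 to 9.74 with FSH/EGF. It rose by 2.89 ± 0.14, or 7.43-fold (limma adjusted p = 1.24e-08). Tmod3, a filament-capping tropomodulin, rose by 1.51 ± 0.15 (limma adjusted p = 8.86e-06). Gsn, the filament-severing gelsolin, rose by 1.49 ± 0.07 (limma adjusted p = 1.36e-08).

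Of 26 crosslinkers and membrane linkers of actin, 13 (50.0%) rose and 2 (7.69%) fell, beside 21.9% and 14.9% of all genes. The median was 0.38. Compared with GDF9, 13 (50.0%) rose and 1 (3.85%) fell, beside 18.6% and 10.5% of all genes. Without FSH/EGF array 1 or 4, or without control arrays 1 and 4, 1 fell against control, and without GDF9 array 3, 2 fell against GDF9. Ezr, ezrin, which ties actin to the membrane, stood at 7.83 to 8.05 in controls and 10.99 to 11.29 with FSH/EGF. It rose by 3.20 ± 0.08, or 9.21-fold (limma adjusted p = 6.02e-11). Msn, the related moesin, rose by 2.13 ± 0.12 (limma adjusted p = 5.24e-08). Plec, the cytolinker plectin, rose by 1.96 ± 0.09 (limma adjusted p = 1.19e-08).

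Of 36 striated muscle genes, 1 (2.78%) rose and 8 (22.2%) fell, beside 21.9% and 14.9% of all genes. The median was -0.18. With equal array medians 2 (5.56%) rose and 4 (11.1%) fell, beside 24.2% and 9.19% of all genes in that setting. With quantile normalization repeated 2 (5.56%) rose and 5 (13.9%) fell, beside 17.4% and 14.5%. Compared with GDF9, 1 (2.78%) rose and 3 (8.33%) fell, beside 18.6% and 10.5% of all genes. Tnni3, cardiac troponin I, stood at 7.82 to 8.60 in controls and 6.33 to 6.49 with FSH/EGF, and it fell by 1.78 ± 0.14 (limma adjusted p = 1.29e-06). Actc1, cardiac alpha actin, stood at 6.39 to 6.67 in controls and 5.78 to 6.10 with FSH/EGF, and it fell by 0.55 ± 0.12 (limma adjusted p = 0.00324). Ryr1, the calcium release channel of skeletal muscle, rose by 0.51 ± 0.07 (limma adjusted p = 0.000183). Without FSH/EGF array 1, 5 fell, and without control arrays 1 and 4, 4 fell. A second gene rose without control array 3, without GDF9 array 2 and without GDF9 array 4. Against GDF9 2 rose without GDF9 array 2, and 6 fell without control array 1, which enters that fit through the shared spread.

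**Figure D5:**
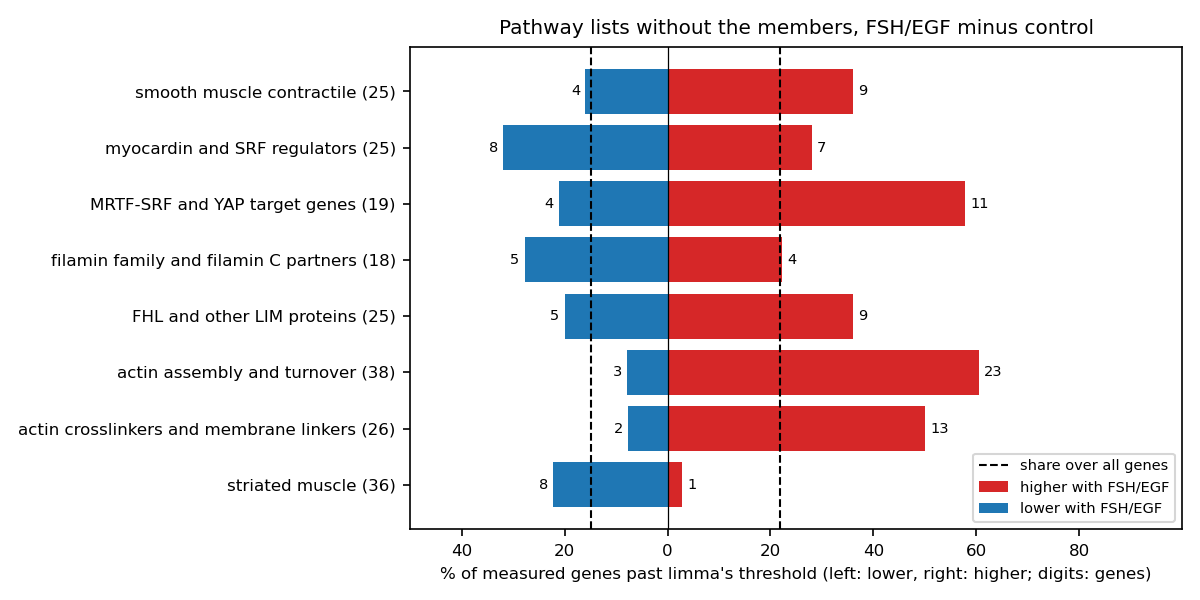
Share of the measured genes of 8 lists past limma's threshold for FSH/EGF minus control, in percent (x axis), with higher genes to the right in red and lower genes to the left in blue. The digits give the number of genes, list sizes stand in brackets, the 10 genes described above are left out, and dashed lines mark 21.9% higher and 14.9% lower over all genes. The list of actin assembly and turnover has 23 higher and 3 lower genes, and the striated muscle list 1 higher and 8 lower.

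Markers of cells that carry smooth muscle genes in the ovary were measured beside these results. Of 11 theca and stroma markers, 0 rose and 2 fell with FSH/EGF against control, which is 18.2% lower, against 14.9% of all genes. The differences of the 11 ran from -0.40 to -0.16, with a median of -0.23, against -0.07 over all genes. An unadjusted limma p under 0.05 was found for 9 of the 11, against 48.7% of all genes. A mean below 5.78 was found for 7 of the 11. Among those was Cyp17a1, the androgen-making enzyme of theca cells, at 4.36 to 4.80 over all arrays. Ptch1, the hedgehog receptor, had the highest mean of that list, at 8.61, and its groups overlapped. The part of theca cells in the Acta2 and Tagln values was not tested.

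Of 10 pericyte markers, 6 had a mean below 5.78, and the list mean ran from 5.29 to 5.53 in controls, from 5.21 to 5.44 with GDF9 and from 5.53 to 5.60 with FSH/EGF. Cspg4 rose by 1.79 and Pdgfrb by 1.53, and 2 of the 10 fell. That is 20.0% each way, against 21.9% higher and 14.9% lower over all genes. The median difference of the 10 was -0.14, against -0.07 over all genes, although the list mean was higher with FSH/EGF. Of 12 endothelial markers, 2 rose, with Cdh5 higher by 3.18, and 1 fell, which is 16.7% and 8.33%. The mean of that list ran from 5.10 to 5.30 in controls, from 5.08 to 5.26 with GDF9 and from 5.37 to 5.41 with FSH/EGF. The median difference of the 12 from control was -0.05, so the higher mean was not shared by most of them. A mean below 5.78 was found for 9 of the 12, and the highest was Egfl7 at 6.19. Of 12 leukocyte markers, all had a mean below 5.78, with Cd3e highest at 5.58, and 1 rose, which is 8.33%. The mean of the leukocyte list ran from 4.87 to 5.04, from 4.74 to 5.00 and from 4.83 to 4.90 in the same order. The part of these cells was not tested.

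Of 20 oocyte markers, 18 had a mean below 5.78, and Zar1 was highest at 6.46. The list mean was 5.90 on control array 4 and ran from 4.93 to 5.08 on the other controls, from 4.78 to 4.95 with GDF9 and from 4.81 to 5.15 with FSH/EGF. Without each array in turn, and without control arrays 1 and 4, the 4 large differences of FSH/EGF from control kept their direction. Over all 17 alternative settings that of Myocd lay between -4.21 and -3.99, that of Acta2 between -2.46 and -2.26, that of Fhl1 between -4.02 and -3.85 and that of Flnc between 5.09 and 5.23.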

How the data were processed

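Expression was measured on 12 arrays of mouse cumulus cells, 4 per culture group. The authors deposited log2 expression values (2.916 to 14.29), and RMA, Partek and GCOS are named, without version or role, per the submitters' processing notes. The genome build is not given in the sources used here. The table held 35399 probe set rows, of which the platform annotation gave 1 symbol to 21789, several to 1621 and did not list 11989. Each of 19938 genes was represented by its probe set of highest mean over the 12 arrays. Within groups the arrays correlated at 0.971 to 0.995.

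Groups were compared with limma 3.58.1 in R 4.3.3, fitting a mean for each group to the 12 arrays with empirical Bayes moderation, and p-values were adjusted by Benjamini-Hochberg over the whole table at a threshold of 0.05. The model was tested on simulated data. No count model, depth or sequence interval applies to arrays, and their number limits the precision.

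The 10 genes, the lists and the marker lists were chosen with earlier results of these data known. Named genes were all 10, the 3 largest differences past the threshold in each list for FSH/EGF minus control, listed genes past it for GDF9 minus control (0 were), the 5 genes most like Myocd and like Flnc, Fshr, Inha and the highest marker of each other cell type. Outside that rule, family relatives, the tropomyosins, Des, Kcnmb1, Srf, Mrtfa, Mrtfb, Pdgfrb, Cdh5 and Cyp17a1 were picked with their values known. Of 244 listed genes 234 were measured. The counts of 1 of the 9 lists on its own are not reported here. Promoter windows came from the RefSeq table for GRCm38.p6. Alternatives were moderation with a trend, robust or absent, a fit of only the compared groups, array weights, no dimmest 40% of rows, repeated quantile normalization, equal array medians, rows with 1 symbol, the mean over probe sets, a replicate block, leaving out each array, and leaving out control arrays 1 and 4, chosen from earlier results.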

Additional observations from a re-analysis of the deposited data

Results flagged for a closer look

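4 values stood apart within a group of 4 arrays by their gap to the nearest array, a test by which chance picks about 1 group in 20. Fhl1 was 5.32 on FSH/EGF array 1, against 5.50 to 5.52 on the other FSH/EGF arrays. Cnn1 was 4.84 on FSH/EGF array 3, against 4.73 on each of the others. These were 2 of the 30 groups of the 10 genes. Arhgef2 was 8.49 on FSH/EGF array 4, against 8.29 to 8.30 on the others. Tnni3 was 8.71 on GDF9 array 3, against 8.39 to 8.43 on the others. These were 2 of the 78 groups of the named list genes.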

How the results depend on the processing

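The pooled counts of listed genes stayed within 1.5 times their main values under each alternative run. For FSH/EGF minus control the rises ran from 75 to 96 and the falls from 29 to 51, and for FSH/EGF minus GDF9 from 75 to 92 and from 22 to 34. With 1 array left out the ranges were 83 to 93, 31 to 48, 79 to 92 and 22 to 33. GDF9 minus control gave 0 throughout with limma. Replicate numbers did not pair the arrays: same-numbered arrays of 2 groups had deviations correlated at -0.39 to 0.22, with 6 of 12 over 0.1, and 3 of 12 arrays correlated best with their own number. With the replicate number as a block 94 listed genes rose and 41 fell against control, and 88 rose and 28 fell against GDF9. The Fhl2 difference of FSH/EGF from control, whose interval included 0, ran from -0.08 to 0.25. Signals near the array medians limit the values of Tagln, Cnn1, Myh11 and Myl9, of Flnc outside the FSH/EGF arrays and of Fhl1 on them.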
